A study of Homo sapiens with 8 samples.

Results

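The 4 ID genes of the human genome, ID1, ID2, ID3 and ID4, were examined on promoter arrays that set chromatin precipitated with a SMAD3 antibody, the SMAD3 IP in the Cy5 channel, against a mock precipitation with an anti-FLAG antibody, the mock IP in the Cy3 channel. Every probe that the array annotation assigns to one of these genes was taken, whatever its signal, which gave 141 probes out of 474411. ID1 on chromosome 20 had 26 probes, ID2 on chromosome 2 had 40, ID3 on chromosome 1 had 39 and ID4 on chromosome 6 had 36. The probes lay between -5339 and 2747 bp from the annotated transcription start, with 80 of them upstream. The cells were A549, an established line from a human lung carcinoma that is used as a model of alveolar epithelium. They were either unstimulated (basal) or stimulated with 2 ng/ml TGFβ1, and the labels name no other treatment or genetic change. The methods of the study state that the cells were deprived of serum before every experiment. The labels give a stimulation of up to 2 h, while the text of the study gives a shorter time for these arrays. Each condition had 2 replicates that the labels call biological, and each replicate used 2 slides with different probes, which made 8 arrays. All values come from 1 cell line, and a promoter array holds no RNA, so neither the identity of the cells nor the expression of the ID genes was checked here.

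ID proteins are helix-loop-helix proteins without a DNA-binding basic region. They pair with E proteins such as those encoded by TCF3, TCF4 and TCF12 and so keep basic helix-loop-helix factors from binding E-boxes, and they are known for holding cells in an undifferentiated or proliferating state. ID1, ID2 and ID3 are textbook immediate targets of the BMP branch of the pathway, in which SMAD1 and SMAD5 bind GC-rich elements together with SMAD4. In the TGFβ branch the receptors phosphorylate SMAD2 and SMAD3. SMAD3 binds short CAGAC boxes, and in epithelial cells it is known to repress ID1 together with ATF3.

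The 250 bases before the RefSeq transcription start of each gene (assembly GRCh38.p14) are shown because the question of the array is how SMAD3 sits on these promoters. All 4 genes were matched by symbol. They are written 5′ to 3′ on the strand of the gene, and the capitals mark the SMAD box CAGAC and the GC-rich letters GGCGCC and GGCCG, on either strand.
ID1 promoter, chr20:31605039-31605288, plus strand: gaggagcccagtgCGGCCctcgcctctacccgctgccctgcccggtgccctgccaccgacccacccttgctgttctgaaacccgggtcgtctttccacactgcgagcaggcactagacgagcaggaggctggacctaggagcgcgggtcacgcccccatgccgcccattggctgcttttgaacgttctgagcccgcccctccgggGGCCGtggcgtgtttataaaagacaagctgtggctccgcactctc
ID2 promoter, chr2:8681806-8682055, plus strand: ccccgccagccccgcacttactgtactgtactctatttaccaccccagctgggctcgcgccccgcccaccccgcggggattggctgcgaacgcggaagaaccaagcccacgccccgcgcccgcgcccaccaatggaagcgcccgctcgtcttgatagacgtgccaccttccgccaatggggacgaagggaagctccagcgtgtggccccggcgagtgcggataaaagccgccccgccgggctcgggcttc
ID3 promoter, chr1:23559502-23559751, minus strand: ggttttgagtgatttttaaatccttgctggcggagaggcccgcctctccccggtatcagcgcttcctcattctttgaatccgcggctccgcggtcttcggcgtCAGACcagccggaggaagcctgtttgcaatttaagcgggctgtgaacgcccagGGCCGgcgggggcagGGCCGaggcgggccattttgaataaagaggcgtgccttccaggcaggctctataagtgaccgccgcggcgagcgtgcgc
ID4 promoter, chr6:19837120-19837369, plus strand: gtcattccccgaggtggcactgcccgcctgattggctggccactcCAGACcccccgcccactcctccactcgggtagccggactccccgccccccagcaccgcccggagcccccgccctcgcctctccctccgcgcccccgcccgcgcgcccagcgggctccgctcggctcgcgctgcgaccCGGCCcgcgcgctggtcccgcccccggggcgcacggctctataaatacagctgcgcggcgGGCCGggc

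The ID3 window held CAGAC 1 time, from base -147 to -143, and the ID4 window held it 1 time, from -205 to -201. CAGAC was not among the letters of the ID1 and ID2 windows. It was present in 38.0% of the 35116 promoter windows of the same length. GGCCG was found 2 times each in ID1, ID3 and ID4 and was present in 44.7% of all windows, while GGCGCC (16.4% of all windows) and the palindrome GTCTAGAC (0.182%) were in none of the 4. No match overlapped another. The windows were rich in G and C, from 62.0% in ID3 and 66.0% in ID1 to 69.2% in ID2 and 78.8% in ID4, and held 24, 19, 29 and 34 CpG dinucleotides in the same order. Few probes lay inside these windows: ID1 had a probe centred at -156 bp, ID3 had one at -238 bp, and the nearest probes of ID2 and ID4 were at 29 and 83 bp. The start that the array uses may differ from the RefSeq start.

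Throughout, a value is a log2 ratio (SMAD3 IP signal over mock IP signal) after the median of its array was subtracted, so that 1 is a ratio 2-fold over the array median and a negative value means relatively more mock IP signal. Above or below mock IP means a value above or below 0 on this centred scale. The array medians were 0.237 to 0.725 before centring. A value slightly below 0 therefore need not mean more mock IP than SMAD3 IP signal. On single arrays 38.7% to 51.5% of all probes exceeded background clearly in both channels. The ratios of replicates correlated with r of 0.824 to 0.948 within a condition and 0.193 to 0.234 between conditions, over probes of 1 slide. The mock IP signals alone correlated with r of 0.914 to 0.985 within a condition and 0.68 to 0.71 between conditions. For the SMAD3 IP signals r between conditions was 0.789 to 0.821. The control channel thus also differed between conditions, and a change of the ratio need not be a change of the SMAD3 IP signal. A probe is called measured below when both channels were well above background in all 4 replicates, which held for 33.9% of all probes and for 44 of the 141 ID probes (31.2%). A probe with both channels at the floor has a ratio near 0 by construction and carries no information on binding. ID1 had 13 measured probes, ID2 had 10, ID3 had 11 and ID4 had 10.

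Measured probes were mostly short ones. Of all probes of 44 to 45 bases, 89.5% were measured, against 2.2% of those of 56 to 60 bases. Among the ID probes, 35 of the 38 shortest were measured, against 1 of the 73 longest. Most of what can be said about the ID genes therefore concerns the stretch just inside the gene: 23 of the 34 ID probes from 0 to 1300 bp were measured, but only 8 of the 36 from -2000 to -1 bp. In that downstream stretch the 21 short measured ID probes had a mean log2 ratio of 0.98 and 1.00 in the basal replicates and of 1.40 and 1.24 in the TGFβ1 replicates. All short measured probes of the array in the same stretch, 43095 in number, averaged 0.09 and 0.06 at the basal level and -0.12 and -0.13 after TGFβ1. Of the 21, 11 (52.4%) were over 2-fold above the array median in all 4 replicates, against 15.2% of the 43095. The genes differed: ID4 gave 6 of these 11 with 9 short measured probes and ID1 gave 3 with 6, while ID3 gave 1 with 5, and its 5 probes averaged -1.21 and -0.87 at the basal level. The 21 probes come from 4 genes and neighbouring probes share DNA fragments, so no test was made of this difference. The stretch and the limit on probe length were not planned. The stretch ends just past the ID4 probe at 1282 bp, the last of a block of high probes, so this choice may favour the contrast.

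**Figure D1:**
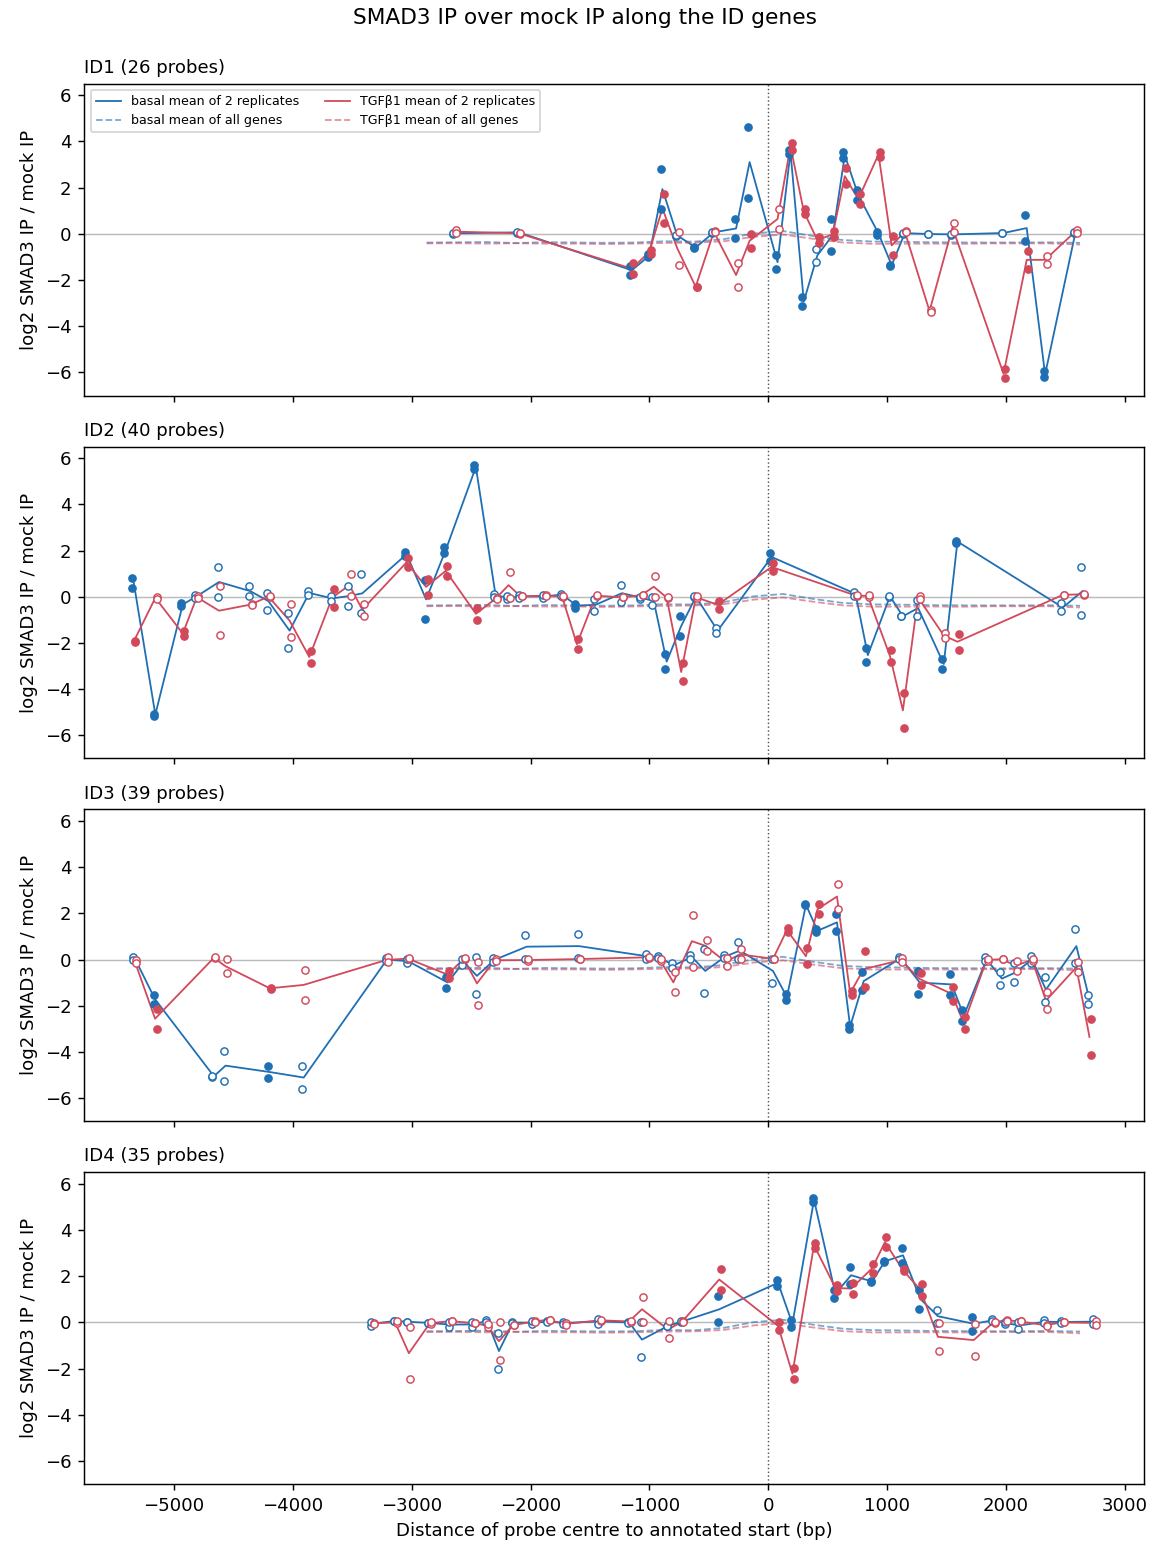
Log2 ratio, SMAD3 IP over mock IP (vertical axis, centred on the array median) against the distance of the probe centre to the annotated start in bp (horizontal axis) for each ID gene. Points are single replicates (blue basal, red TGFβ1, filled where both channels were well above background in both replicates of that condition, open otherwise), solid lines are means of 2 replicates and dashed lines the mean of all genes in bins of 250 bp. ID4 shows a block of filled points above 0 from 386 to 1282 bp in both conditions, while the long flat stretches of open points near 0 were not above background.

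ID4 carried the longest stretch of SMAD3 IP signal seen in the 4 genes. It had up to 10 measured probes in a row, against 5 in ID1, 4 in ID2 and 3 in ID3. A run of 7 could therefore not have been seen in the other genes. The highest probe lay at 386 bp, inside the gene, with log2 ratios of 5.39 and 5.23 in the basal replicates and of 3.46 and 3.23 in the TGFβ1 replicates. It was high in all 4 replicates and lower after TGFβ1 without overlap, with a change of -1.97 ± 0.14 (SE, n = 2 per condition, adjusted p = 0.00704). From this probe on, 7 probes in a row, at 386, 566, 698, 874, 983, 1135 and 1282 bp, were measured and had SMAD3 IP above mock IP in every replicate. The probe at 983 bp gave 2.67 and 2.63 at the basal level and 3.70 and 3.25 after TGFβ1 (adjusted p = 0.0853). The probe at 874 bp, the brightest of ID4, gave 1.76 and 1.79, then 2.55 and 2.13 (adjusted p = 0.168). The probe at 1135 bp gave 3.25 and 2.57, then 2.22 and 2.30 (adjusted p = 0.279). The block was thus present in both conditions, and of its 7 probes only the first passed the test for a change. Among 16179 genes with at least 10 probes, 21 (0.13%) had a run of 7 or more such probes, and 3975 had a run of 7 or more measured probes in which it could have been seen. The longest run in any gene was 9. This count was made after the profile of ID4 had been seen.

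The 2 probes of ID4 closest to the start fell as well. The probe at 83 bp, the nearest to the start, gave 1.84 and 1.60 at the basal level and 0.04 and -0.33 after TGFβ1, a change of -1.86 ± 0.20 (SE, adjusted p = 0.0145). The probe at 204 bp, the lowest of the gene, gave 0.09 and -0.21, then -1.96 and -2.46, a change of -2.15 ± 0.25 (SE, adjusted p = 0.0169). At both probes the conditions did not overlap, so the 3 called probes of ID4 were neighbours that fell together, while the other 32 tested probes did not pass. All 3 calls were lost without basal replicate 1 (adjusted p = 0.0606 to 0.11) or 2 (0.0585 to 0.0953), and those at 83 and 204 bp also without TGFβ1 replicate 2 (0.0605 and 0.0626). The changes stayed about as large, at -1.67 to -2.05 at 83 bp, -1.91 to -2.40 at 204 bp and -1.85 to -2.08 at 386 bp. Leaving out a replicate leaves 1 sample in that condition, which is then assumed to vary like the other condition, and the probes called over the whole array fell from 49725 higher and 58726 lower to between 22865 and 28942 higher and between 20028 and 40372 lower. With normexp, an alternative background correction by a fitted model, the 3 changes shrank to -0.15, -0.57 and -0.68 and none was called. Upstream, the probe at -412 bp was measured and gave 0.00 and 1.14, then 2.33 and 1.40 (adjusted p = 0.295), and 18 probes of the gene were above background in no channel of any replicate. The probe at -953 bp was marked as an outlier by the scanner software and was left out.

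**Figure D2:**
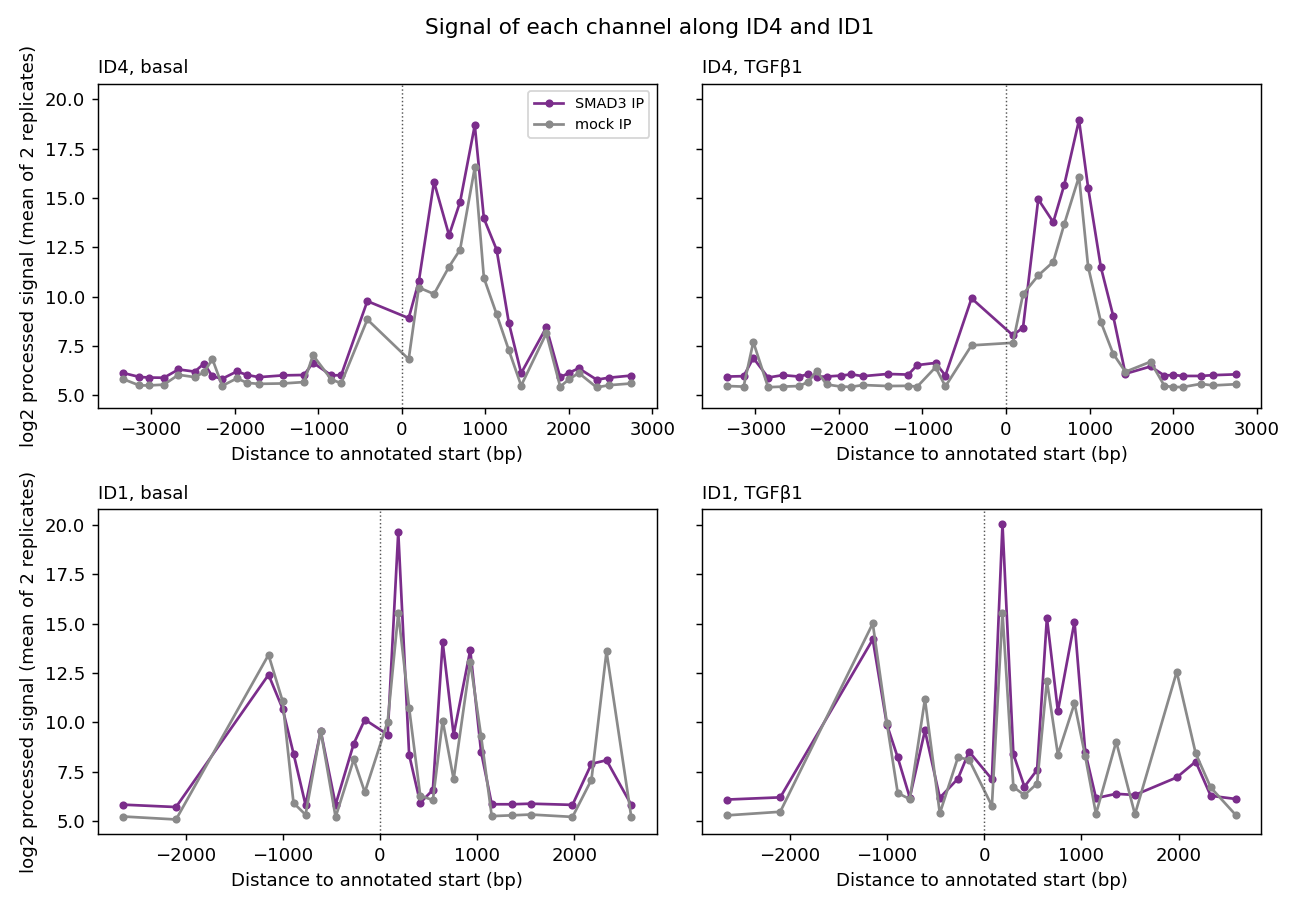
Log2 processed signal (vertical axis, mean of 2 replicates) of the SMAD3 IP (purple) and the mock IP (grey) against the distance to the annotated start in bp for ID4 (top) and ID1 (bottom), at the basal level (left) and after TGFβ1 (right). From 386 to 1282 bp of ID4 the SMAD3 IP lies above the mock IP in both conditions. Both channels reach their highest values at 874 bp in ID4 and at 188 bp in ID1.

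The signals behind the ID4 block were bright in both channels. At 874 bp the SMAD3 IP signal was 18.68 and the mock IP signal 16.54 on the log2 scale at the basal level, and 18.94 and 16.08 after TGFβ1. At 386 bp the values were 15.81 and 10.13 at the basal level, and 14.93 and 11.07 after TGFβ1. The mock IP signal was thus bright there too, and the ratio sets the SMAD3 IP signal against it. The probes of the block are all among the short ones. Whether their brightness reflects recovered DNA or the probes themselves was not tested.

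ID1, the family member best known as a BMP target, had at most 5 measured probes in a row. A block as long as that of ID4 could therefore not be seen there. The strong probes of ID1 stood singly or in a pair. The highest was at 188 bp, with log2 ratios of 3.45 and 3.63 at the basal level and of 3.65 and 3.93 after TGFβ1. All 4 values lay close together, with a change of 0.25 ± 0.16 (SE, adjusted p = 0.486). The probes at 645 and 758 bp were also above mock IP in every replicate, with 3.27 and 3.54, then 2.17 and 2.83 at the first, and 1.88 and 1.48, then 1.27 and 1.72 at the second. Neither passed the test (adjusted p = 0.161 and 0.752). At the first the conditions did not overlap, with a change of -0.90 ± 0.30 (SE). A pair of other probes rose. At 300 bp the values were -2.71 and -3.14 at the basal level and 0.87 and 1.06 after TGFβ1, a change of 3.89 ± 0.21 (SE, adjusted p = 0.00419). At 929 bp they were -0.07 and 0.09, then 3.54 and 3.33, a change of 3.42 ± 0.14 (SE, adjusted p = 0.00302). At both probes every TGFβ1 replicate exceeded every basal replicate, and both calls held whichever replicate was left out. With the normexp correction neither was called, and the changes were 0.50 and 2.30. The mock IP signal, which was not scaled between arrays, moved with these changes: at 300 bp it went from 10.72 to 6.73 on the log2 scale while the SMAD3 IP signal was 8.36 and 8.39, and at 929 bp the mock IP signal went from 13.08 to 10.96 and the SMAD3 IP signal from 13.66 to 15.10.

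Upstream of ID1, 1 of the 10 probes was called, as lower. This probe, at -610 bp, gave -0.61 and -0.57 at the basal level and -2.28 and -2.30 after TGFβ1, a change of -1.70 ± 0.10 (SE, adjusted p = 0.00456) that was -0.49 and not called with the normexp correction. The measured probes at -1147 and -1002 bp gave changes of 0.07 and 0.17 that did not pass. The probe at -156 bp, the one inside the printed promoter, gave 4.64 and 1.57, then -0.60 and 0.00. The conditions did not overlap there, but the basal replicates differed by more than 3 log2 units and the change of -3.40 ± 1.24 (SE) did not pass (adjusted p = 0.195). The probe nearest to the start, at 79 bp, gave -0.94 and -1.52, then 0.22 and 1.07 (adjusted p = 0.071), with a channel not well above background after TGFβ1. Downstream of the gene the lowest probe, at 2331 bp, gave -5.96 and -6.21, then -0.94 and -1.31, a change of 4.96 ± 0.20 (SE, adjusted p = 0.00294), with the SMAD3 IP channel not well above background in 1 of the TGFβ1 replicates. At 1358 and 1981 bp neither channel was well above background at the basal level, so the calls there (adjusted p = 0.00226 at both) set a mock-enriched signal after TGFβ1, of -5.85 and -6.26 at 1981 bp, against no measured ratio.

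ID3, which like ID1 is induced by BMP in many cell types, had its highest ratios at 318, 416 and 579 bp at the basal level. After TGFβ1 they were at 158, 416 and 579 bp. The probe with the highest mean over all 4 replicates was that at 579 bp. It gave 1.98 and 1.25 at the basal level and 2.20 and 3.26 after TGFβ1 (adjusted p = 0.303). A channel was not well above background there after TGFβ1. The probe at 416 bp gave 1.31 and 1.18, then 2.40 and 1.97, a change of 0.94 ± 0.20 (SE, adjusted p = 0.0644). It was the only measured probe of ID3 above mock IP in all 4 replicates. Around it the ratio changed in both directions. At 158 bp it rose, from -1.74 and -1.51 to 1.19 and 1.37, a change of 2.90 ± 0.15 (SE, adjusted p = 0.004). At 690 bp it rose from -2.81 and -2.98 to -1.38 and -1.53, a change of 1.45 ± 0.13 (SE, adjusted p = 0.0103). At 318 bp it fell, from 2.39 and 2.36 to 0.50 and -0.20, a change of -2.22 ± 0.29 (SE, adjusted p = 0.0221). The conditions overlapped at none of these 3 probes, so neighbouring probes went opposite ways. The call at 158 bp held whichever replicate was left out, while that at 690 bp was lost in each case (adjusted p = 0.0547 to 0.0677, changes 1.36 to 1.53) and that at 318 bp was lost without either basal replicate (adjusted p = 0.143 and 0.14, changes -2.21 and -2.24). With the normexp correction the changes at 158, 318 and 690 bp were 1.01, -0.13 and 0.62 and none was called. At 41 bp, the probe nearest to the start, the values were -1.01 and 0.02, then 0.04 and 0.04 (adjusted p = 0.571). Each channel was well above background there in 1 of the 4 replicates, and neither was after TGFβ1.

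Far upstream of ID3, 4 neighbouring probes from -4665 to -3909 bp had far more mock IP than SMAD3 IP signal at the basal level. The only measured one, at -4194 bp, gave -5.14 and -4.60 at the basal level and -1.25 and -1.23 after TGFβ1, a change of 3.62 ± 0.23 (SE, adjusted p = 0.00567). Its mock IP signal went from 12.69 to 7.45 on the log2 scale and its SMAD3 IP signal from 8.18 to 6.73, so both channels were lower after TGFβ1. Its call was lost without TGFβ1 replicate 1 (adjusted p = 0.0529) or 2 (0.0535). The probe with the lowest mean, at -3909 bp, gave -5.62 and -4.59, then -1.74 and -0.45 (change 4.01 ± 0.66 SE, adjusted p = 0.0358), and the differences at -4665 and -4567 bp were 5.13 and 4.30 (adjusted p = 0.00203 and 0.0233). The calls at -3909 and -4567 bp were lost whichever replicate was left out (adjusted p = 0.0785 to 0.167 and 0.0573 to 0.127). At these 3 probes the SMAD3 IP channel was not well above background in at least 1 basal replicate, so their basal ratios are bounds on how far the mock IP exceeded it. At -4665 bp neither channel was well above background after TGFβ1. With the normexp correction the 4 differences were 0.73 to 1.37 and none was called.

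ID2, the gene with the most probes, showed its largest values well upstream of the start. The highest probe, at -2460 bp, gave 5.71 and 5.52 at the basal level and -0.48 and -1.001 after TGFβ1. The change of -6.35 ± 0.24 (SE, adjusted p = 0.00272) was the largest of any ID probe. The SMAD3 IP signal went from 17.53 to 9.41 on the log2 scale and the mock IP signal from 11.56 to 9.63. The call held whichever replicate was left out. The 2 measured probes on its upstream side that were above mock IP in every replicate did not pass the test. At -3044 bp the values were 1.93 and 1.75, then 1.69 and 1.28 (adjusted p = 0.414), and at -2714 bp they were 2.15 and 1.89, then 1.34 and 0.90 (adjusted p = 0.0867). The next probe towards the gene, at -2294 bp, was above background in no channel. At the start itself, the probe at 29 bp gave 1.91 and 1.53, then 1.47 and 1.101, above mock IP in all 4 replicates and without a called change (adjusted p = 0.374). It was the only measured probe of ID2 from 0 to 1300 bp, and the next probe lay at 735 bp.

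Other ID2 probes fell as well. At 1593 bp the values went from 2.34 and 2.43 to -1.61 and -2.29, a change of -4.34 ± 0.29 (SE, adjusted p = 0.00588). At -5339 bp they went from 0.79 and 0.39 to -1.91 and -1.95 (change -2.52 ± 0.18 SE, adjusted p = 0.00697), at -4927 bp the change was -1.26 (adjusted p = 0.0132) and at -1610 bp it was -1.66 (adjusted p = 0.0201). All 5 measured ID2 probes that were called fell. Apart from that at -2460 bp, these calls were lost when some replicates were left out: at 1593 bp without basal replicate 1 or 2 (adjusted p = 0.0666 and 0.0694), at -5339 bp without TGFβ1 replicate 1 or 2 (0.0578 and 0.0592), at -4927 bp in all 4 cases (0.0531 to 0.0836) and at -1610 bp in all but the one without TGFβ1 replicate 1 (0.0608 to 0.126). The changes moved little, within -4.67 to -4.00 at 1593 bp, -2.72 to -2.32 at -5339 bp, -1.35 to -1.17 at -4927 bp and -1.88 to -1.45 at -1610 bp. With the normexp correction the change at 1593 bp was -0.995 and that at -1610 bp -0.35, neither called, against -5.03 at -2460 bp. The 5 called as higher were not measured throughout: at -5158, -854 and 839 bp both channels were well above background at the basal level, where mock IP exceeded SMAD3 IP (-5.14 and -5.06 at -5158 bp), and neither was after TGFβ1. The reverse held at -3862 bp, where -2.34 and -2.87 after TGFβ1 stood against no measured basal ratio. At 1134 bp, the lowest probe of the gene, the TGFβ1 ratios were -4.17 and -5.67 and the SMAD3 IP channel was not well above background at the basal level.

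**Figure D3:**
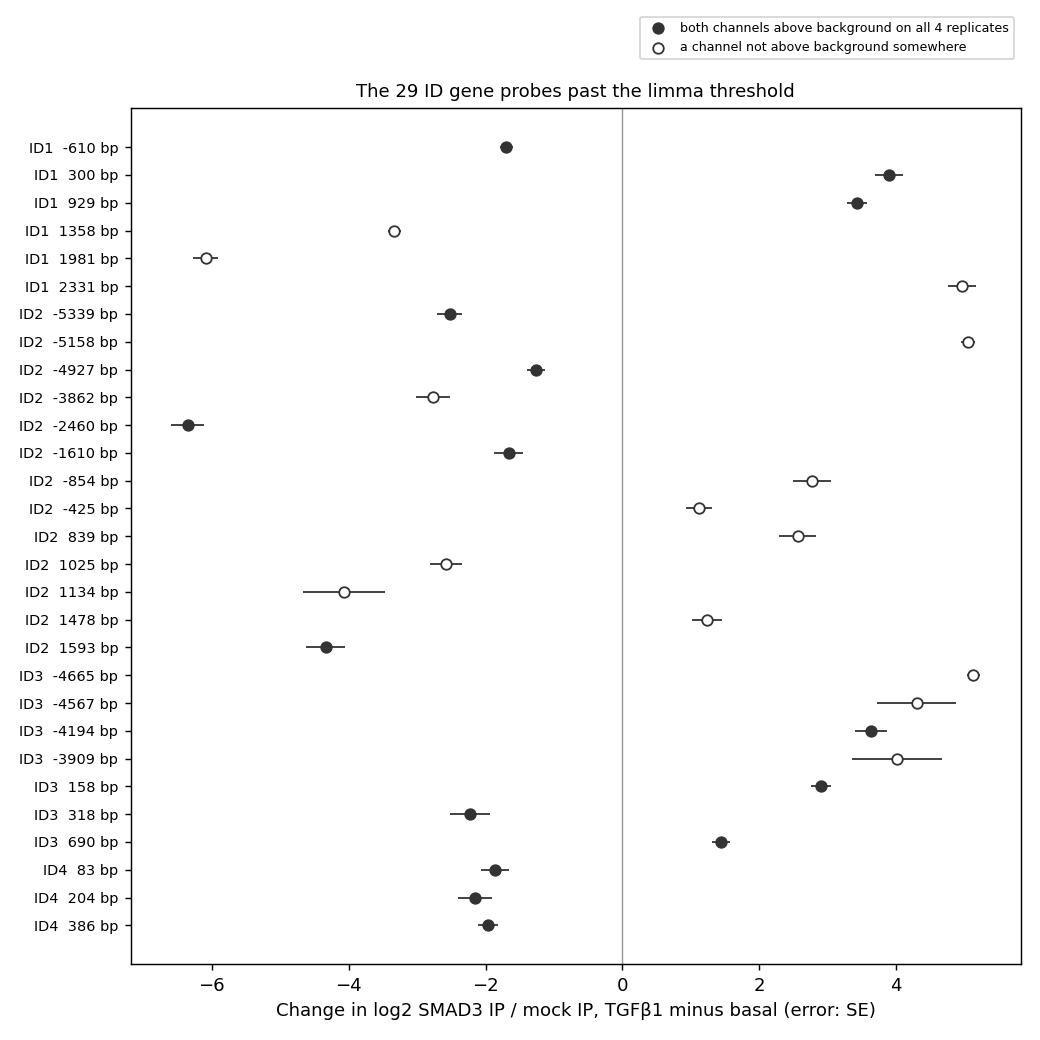
Change of the log2 ratio (SMAD3 IP over mock IP), TGFβ1 minus basal (horizontal axis, error bars SE), for the 29 ID probes past the limma threshold, listed by gene and distance to the start. Filled points were well above background in both channels in all 4 replicates (15 probes), open points were not (14 probes). The filled points of ID2 and ID4 all lie below 0, while those of ID1 and ID3 lie on both sides.

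In all, 14 of the 140 tested ID probes were called higher after TGFβ1 (10.0%) and 15 lower (10.7%). Over all 473007 probes tested, 10.5% were called higher and 12.4% lower, so the share of ID probes that changed was near that of the array. Among the 44 measured ID probes, 5 were called higher (11.4%) and 10 lower (22.7%), against 19% and 25.5% of all measured probes. A fit of the measured probes alone called 7 higher and 13 lower of these 44, against 23.2% and 30.7% of the array. Of the 29 calls, 15 were at measured probes and 7 at probes where neither channel was well above background in 1 of the conditions. With the normexp correction the 29 changes kept their direction but shrank to between 3.36% and 79.1% of their size (median 34.7%), 20 of them to under 50%. Some shrinkage follows at dim probes from the offset of that correction alone. Only 5 of the 29 then stayed past the threshold, all of them falls at ID2 (-5339, -3862, -2460, 1025 and 1134 bp), against 8061 probes higher and 13394 lower over the array. Of the 29, 10 stayed past the threshold whichever single replicate was left out. The ID2 probe at -2460 bp was the only one of the 29 past the threshold under every alternative that gave it a value.

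The direction that held across all 4 replicates varied from gene to gene. Of the 10 measured ID4 probes, 8 were above the array median in all 4 replicates and 0 below it. The other genes had 4 above and 4 below of 13 (ID1), 3 and 3 of 10 (ID2) and 1 and 7 of 11 (ID3). Over all measured probes 19.6% were above in all 4 replicates and 39.1% below, and 8.77% were more than 2-fold above, against 12 of the 44 ID probes (27.3%), of which ID4 gave 6, ID1 3, ID2 2 and ID3 1. These shares are a description, since neighbouring probes are not independent.

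At the level of whole promoters, the mean over probes from -2000 to 800 bp, no ID gene changed past the threshold. Over 15961 genes, 20.4% were called higher and 27.6% lower after TGFβ1, and the median change was -0.06. ID3 gave 0.22 and -0.09 at the basal level and 0.50 and 0.30 after TGFβ1, with no overlap, and a change of 0.33 ± 0.16 (SE, 95% interval -0.03 to 0.69, adjusted p = 0.117). ID4 gave 0.64 and 0.79, then 0.54 and 0.36, again with no overlap, and a change of -0.26 ± 0.14 (SE, interval -0.59 to 0.06, adjusted p = 0.165). ID1 gave 0.39 and 0.36, then -0.03 and 0.43, and ID2 gave -0.37 and -0.31, then -0.19 and -0.39. Their conditions overlapped, with changes of -0.18 (interval -0.57 to 0.22, adjusted p = 0.443) and 0.05 (interval -0.27 to 0.37, adjusted p = 0.813). The window means include the probes at the floor, and with measured probes alone ID3 was called higher (change 0.77, adjusted p = 0.00268) and ID4 lower (-0.84, adjusted p = 0.00244), on 4 and 6 probes. ID3 was also called higher with loess, the series matrix values and all probes of the gene (0.45 to 0.49), and ID4 lower in the window from -1000 to 500 bp (-0.81). ID2 was called lower, which turned its direction, with all of its probes (-0.38, adjusted p = 0.0253), with probes above background in 1 channel (-0.74, adjusted p = 0.0156) and with measured probes and a minimum of 1 (-1.36, adjusted p = 0.00408). The filter of 1 channel also called ID3 higher (0.88) and ID4 lower (-0.84). The directions of ID1, ID3 and ID4 turned with the median over probes in place of the mean (0.041, -0.066 and 0.036), and those of ID1, ID2 and ID4 with the normexp correction (0.016, -0.0105 and 0.031).

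**Figure D4:**
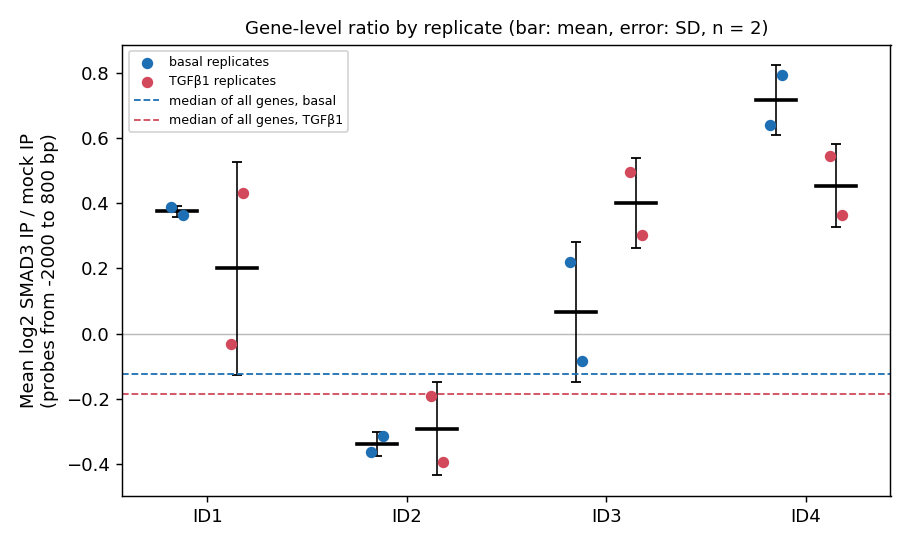
Mean log2 ratio (SMAD3 IP over mock IP) of the probes from -2000 to 800 bp (vertical axis) for each ID gene, with 1 point per replicate (blue basal, red TGFβ1), the mean as a bar and the SD as an error bar (n = 2), and the median of all genes in each condition as a dashed line. For this window mean ID4 is highest and ID2 lowest in both conditions, an order that changes under some alternatives, and the 2 TGFβ1 replicates of ID1 lie far apart.

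The order of the promoter means at the basal level was ID4 (0.72 ± 0.11, SD, n = 2), ID1 (0.38 ± 0.02), ID3 (0.07 ± 0.21) and ID2 (-0.34 ± 0.04). The replicates of neighbours in this order did not overlap. After TGFβ1 the order was ID4 (0.45 ± 0.13), ID3 (0.40 ± 0.14), ID1 (0.20 ± 0.33) and ID2 (-0.29 ± 0.14), and the first 3 overlapped. ID4 was highest and ID2 lowest in 9 of 14 alternatives at the basal level and in 11 of 14 after TGFβ1. These counts include alternatives that could not change the order. The replicate block and the fits without a replicate of the other condition leave the means of a condition as they are. The order changed with loess, where ID1 was highest in both conditions, and with the median over probes, where ID3 was highest at the basal level (0.13 against 0.039 for ID4) and ID1 lowest after TGFβ1. ID3 was lowest at the basal level with normexp, with all probes (-0.79 against -0.12 for ID2) and with measured probes and a minimum of 1, and without TGFβ1 replicate 1 ID1 was highest after TGFβ1. The limma fit tested each mean against the array median. By this test, ID4 was higher in both conditions (adjusted p = 0.000365 and 0.00451), ID1 at the basal level (adjusted p = 0.0272), ID3 after TGFβ1 (adjusted p = 0.0136), and ID2 was lower in both (adjusted p = 0.0172 and 0.0321). Of all genes, 20.7% were called above and 38.5% below the array median at the basal level, and 16.6% and 42.9% after TGFβ1. The ID4 mean stood above that of 93% of genes at the basal level and of 89.8% after TGFβ1. The call for ID1 was lost without either basal replicate, with the normexp correction and in the narrower window from -1000 to 500 bp (adjusted p = 0.069 to 0.142). The call for ID3 was lost without TGFβ1 replicate 1 or 2 (adjusted p = 0.175 and 0.0611) and that for ID4 after TGFβ1 without replicate 1 (0.0723). Those for ID2 were lost without basal replicate 1 or 2 (0.143 and 0.0889) and without TGFβ1 replicate 2 (0.23). Against the array median the direction of ID1 turned with all probes of the gene in both conditions (-0.053 and -0.20), and that of ID3 turned with all probes (-0.79 and -0.32). By the same limma test ID3 was then called lower in both conditions (adjusted p = 6.33e-05 and 0.00498). ID1 was called lower after TGFβ1 (adjusted p = 0.0327). The direction of ID2 turned with the normexp correction (0.051 and 0.0405). The calls of ID4 were lost with the normexp correction (0.50 and 0.54) and with the median over probes (0.039 and 0.075). The median over probes also lost the calls of ID1 (-0.0605), ID3 (0.062) and ID2 (-0.11 and 0.0053). With loess both ID2 calls were lost (-0.17 and -0.10). With the series matrix values the direction of ID2 turned without a call (0.024 and 0.23). Some other windows and filters lost the ID2 call in a single condition.

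Tested on the separate channels, no ID gene changed in the mean mock IP signal or the mean SMAD3 IP signal of its window, against 6.4% of genes called higher and 7.53% lower in the mock IP and 0.783% and 1.61% in the SMAD3 IP. Changes of the mean mock IP signal ranged from -0.17 in ID2 to 0.50 in ID4, and those of the SMAD3 IP signal from -0.24 in ID2 to 0.26 in ID3. Without basal replicate 2 the mock IP signal of ID4 was called higher (0.91, adjusted p = 0.000327), and without basal replicate 1 that of ID2 was called lower (-0.53, adjusted p = 0.0464).

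As a description, a peak with the width of DNA fragments 200 to 700 bp long was placed on the probes of each gene. The height is the fitted ratio of SMAD3 IP to mock IP at the centre, relative to the array median, for the best peak of the gene. In ID4 the best centre lay at 425 bp at the basal level, with a height of 19.8 (19.7 and 18.5 in the replicates), and at 950 bp after TGFβ1, with a height of 13.1 (15.5 and 10.6). In ID3 the centre stayed at 375 to 425 bp, and its height was 2.05 in basal cells and 3.34 in TGFβ1-treated cells. In ID2 it lay at -2525 bp with a height of 24.5 at the basal level, resting on the probe at -2460 bp, and at -3025 bp with a height of 2.55 after TGFβ1. In ID1 the basal replicates placed it at -150 and 675 bp, so its basal centre was not settled, and the TGFβ1 replicates placed it at 825 and 725 bp with heights of 5.36 and 5.62. Over 16179 genes the median height was 2.83 in basal and 2.43 in TGFβ1-treated cells. With both replicates fitted together, the ID4 height stood above that of 90.9% of genes at the basal level and of 91.5% after TGFβ1. The shares were 92.1% and 52.2% for ID2, 56.2% and 78.6% for ID1, and 37.3% and 62.9% for ID3.

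Genes that work with the ID proteins were counted in the same window. Of 15 basic helix-loop-helix partners and targets of ID inhibition, 3 were called higher after TGFβ1 (20% against 20.4% of all genes) and 4 lower (26.7% against 27.6%), with a median change of -0.04 beside -0.06 for all genes. The 3 largest changes of the ratio were at OLIG2, which directs oligodendrocyte and motor neuron fates (1.34, adjusted p = 7.86e-05), TAL1, the haematopoietic factor (1.06, adjusted p = 0.00153), and the E protein gene TCF3 (1.06, adjusted p = 0.000298). TCF4 and TCF12, the other E proteins, gave changes of 0.20 and -0.11 that did not pass. Of 18 genes that respond early to TGFβ or BMP, 3 were called higher (16.7%) and 5 lower (27.8%), near the same shares of all genes, with a median change of 0.02. The largest were falls of the ratio at SNAI1, which encodes a repressor of epithelial genes (-2.40, adjusted p = 9.52e-05), the inhibitory SMAD6 (-1.71, adjusted p = 5.91e-05) and PMEPA1, an inhibitor of TGFβ signalling listed as TMEPAI on the array (-1.48, adjusted p = 6.84e-05). With measured probes SMAD6 was at -0.40 and not called (adjusted p = 0.0752). The study itself reports stronger SMAD3 binding at the SMAD6 promoter after TGFβ1, the opposite direction. It used the height of a fitted peak, whereas the value here is a mean over all probes of the window. Which measure reflects binding at SMAD6 was not tested. At ATF3, the partner of SMAD3 at ID1, the ratio fell by 0.38 (adjusted p = 0.0447), a call lost under each replicate left out (adjusted p = 0.0895 to 0.241). Of 20 tested genes of BMP and TGFβ ligands, receptors and SMADs, 5 were called higher (25%) and 8 lower (40%), against 20.4% and 27.6% of all genes, with a median change of -0.16. The largest were falls of the ratio at the ligand genes BMP4 (-1.33, adjusted p = 0.000102) and BMP6 (-1.17, adjusted p = 0.000405) and at the receptor gene TGFBR1 (-1.02, adjusted p = 0.00122). Both directions occurred in each list. With the normexp correction the calls of OLIG2, TAL1, TCF3, ATF3, BMP4 and BMP6 were lost, with the same direction. With the median over probes those of TCF3 (0.16), PMEPA1 (-0.18), ATF3 (-0.012), BMP4 (-0.32), BMP6 (-0.051) and TGFBR1 (-0.088) were lost. With all probes of the gene the call of TAL1 was lost (0.42, adjusted p = 0.0521), SMAD6 was at -0.44 (adjusted p = 0.00633), and the direction turned at PMEPA1 and ATF3.

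The genes whose 4 replicate values came closest to those of each ID gene, among 9663 genes with at least 10 probes in the window, were PVRL1 and GPR26 for ID1 (Euclidean distance 0.06 and 0.10 log2 units), CTSG and RAB27A for ID2 (0.05 and 0.06), C1orf21 and SCGN for ID3 (0.09 and 0.12) and CHD5 and PENK for ID4 (0.07 and 0.07). None of them was another ID gene, since the ID genes were left out of the candidates.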

How the data were processed

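Promoter arrays of A549 cells were measured at the basal level and after TGFβ1, with 2 replicates per condition, 2 slides per replicate and 2 channels per array. The deposited intensities came from Agilent Feature Extraction 9.5.1.1, per the file headers: background-subtracted, detrended and dye-scaled within each array, with surrogate values for dim signals, and not normalized between arrays. The authors also deposited log2 ratios in a series matrix; they matched the ratio of processed signals to within 3.13e-06 and were used uncentred as an alternative. The annotation gives distances to gene starts; no genome build is named in the files, so no probe coordinates are printed, and probe sequences were not used here. Control spots and 1404 outlier probes were left out, and 1 of those was an ID4 probe. Log2 ratios were centred on the array median. Changes were tested per probe (473007) and per gene (15961 with at least 4 probes from -2000 to 800 bp) with limma 3.58.1 (lmFit, eBayes, Benjamini-Hochberg over all features, threshold 0.05) in R 4.3.3, two-sided, and tested on simulated data. Signal over background and 2 replicates per condition limit the precision. The p-values cover the spread between these replicates.

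Probes named with full values are, per ID gene, those nearest to the start, highest, lowest and most changed, and up to 6 past the threshold, with further probes, and the genes TCF4, TCF12 and ATF3, named after their values were seen. The 2 genes of like pattern were chosen by Euclidean distance, and list members by the 3 largest called changes. ID genes and lists were chosen with earlier results of these data known. Older array symbols were matched through RefSeq synonyms, which left ACVR1 without a value. Promoter letters came from RefSeq (GRCh38.p14). Peaks and figures used Python 3.11.15 (numpy 2.4.6, pandas 2.3.3, matplotlib 3.10.9). Alternatives were the normexp correction (offset 50), loess, series matrix values, filters on dim probes, other windows, the median over probes, outliers kept, a replicate block, separate slide fits and leaving out each replicate. The filter with at least 1 measured probe per gene and the uncentred channel signals were added after seeing the data. The stretch from 0 to 1300 bp and the limit to short probes were not planned.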

Additional observations from a re-analysis of the deposited data

How the results depend on the processing

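The change of each promoter mean depended on the processing, and the cause was not tested unless the setting itself shows it. Values are log2. ID1 gave 0.016 with normexp and 0.041 with the median over probes, and -0.41 to 0.056 when a replicate was left out. ID2 gave -0.0105 with normexp, -0.74 with probes above background in 1 channel, -0.38 with all probes, -1.36 with measured probes and a minimum of 1 probe, the last 3 past the threshold, and -0.054 to 0.15 when a replicate was left out. ID2 had under 4 measured probes in the window and so no value with measured probes and the usual minimum. ID3 gave 0.45 with loess, 0.49 with the series matrix values, 0.88 with probes above background in 1 channel, 0.77 with measured probes under either minimum and 0.47 with all probes, all past the threshold, against -0.066 with the median over probes and 0.18 to 0.48 when a replicate was left out. ID4 gave -0.84 with each filter on dim probes and -0.81 in the window from -1000 to 500 bp, all past the threshold, 0.031 with normexp, 0.036 with the median over probes and -0.35 to -0.17 when a replicate was left out. The series matrix values moved the median change of all genes by 0.14; relative to that median ID3 was at 0.40 in both scalings.

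Enrichment over the array median moved likewise. For ID1 at the basal level it was 0.36 with normexp, 0.31 in the narrow window, -0.053 with all probes and -0.0605 with the median over probes (0.36 to 0.39 when a replicate was left out). For ID1 after TGFβ1 it was 0.80 with loess, 0.90 with the series matrix values, 0.49 with measured probes under either minimum and -0.20 with all probes, all past the threshold. With the median over probes it was -0.0196 (-0.032 to 0.43 when a replicate was left out). For ID2 at the basal level it was 0.051 with normexp, -0.17 with loess, 0.024 with the series matrix values, -0.35 with probes above background in 1 channel, 0.0197 with measured probes and a minimum of 1, -0.12 with all probes and -0.11 with the median over probes (-0.37 to -0.31). For ID2 after TGFβ1 it was 0.0405 with normexp, -0.10 with loess, 0.23 with the series matrix values, -1.09 with probes above background in 1 channel, -1.34 with measured probes and a minimum of 1, -0.51 with all probes (these 3 past the threshold), -0.32 in the narrow window and 0.0053 with the median over probes (-0.39 to -0.19). For ID3 at the basal level it was 0.29 with loess, 0.43 with the series matrix values and -0.79 with all probes, all past the threshold. With measured probes under either minimum it was -0.22 (-0.085 to 0.22 when a replicate was left out). For ID3 after TGFβ1 it was -0.32 with all probes, past the threshold, and 0.062 with the median over probes (0.30 to 0.50). For ID4 it was 0.50 and 0.54 with normexp and 0.039 and 0.075 with the median over probes, at the basal level and after TGFβ1, against 1.80 and 0.97 with each filter on dim probes, 1.08 and 0.97 with the series matrix values, 0.91 and 0.74 with loess and 1.24 and 0.43 in the narrow window (0.64 to 0.79 and 0.36 to 0.54 when a replicate was left out).

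ID probes called higher numbered 14 and lower 15. With normexp they were 0 and 5. Called higher were 9 with probes above background in 1 channel and 7 with measured probes, where fewer probes were tested. Leaving out a replicate gave 6 to 9 higher and 5 to 13 lower. No called ID probe changed direction under any alternative that gave it a value. In the mock IP signal 0 ID genes were called, 1 (ID2, -0.70) without centring and 0 to 1 when a replicate was left out. In the SMAD3 IP signal 0 were called by limma under each alternative. Over all genes 3258 were called higher and 4398 lower, 659 and 996 with normexp, 740 and 948 with the median over probes, and 4381 and 3488 with the series matrix values. Of the other named genes, TCF12 turned with the series matrix values (0.029), all probes (0.14) and the median over probes (0.054), and PMEPA1 (0.15) and ATF3 (0.0016) turned with all probes.

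Replicate numbers in the labels need not pair the samples: deviations of same-numbered replicates correlated with r of 0.00883 on slide 1 and 0.0235 on slide 2. With the replicate number as a block, the ID changes were -0.18, 0.05, 0.33 and -0.26 with no call, and 12 ID probes were called higher and 17 lower.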
